A study of Drosophila melanogaster with 23 samples.

Results

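The promoters of 10 Polycomb group genes of Drosophila melanogaster were examined for binding of Mzfp1, a zinc finger protein encoded by CG1603, as measured by chromatin immunoprecipitation and sequencing (ChIP-seq). The 10 genes are Pc, Psc, Sce, ph-p, ph-d, Scm, E(z), esc, Su(z)12 and Pcl, of 18277 annotated genes. They were chosen by name, with earlier results of these data known. A bound region of a peak list was assigned to a gene when it shared at least 1 bp with the gene body or with the 1 kb upstream of an annotated transcription start site (TSS). This rule gave 34 regions over the 10 deposited lists, of which 10 lay at Pc and 24 at 5 of the other genes. A region at Pc was present in each list and ranked among the highest in most of them, whereas the other 9 genes had weak regions or none.

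The lists come from whole flies aged 2 to 3 days (8 lists, each made by the authors from 2 libraries) and from embryos (2 lists, each from 1 library). The transgenic adults carry, over the TM6,Tb balancer, a transgene for HA-tagged Mzfp1 driven by the ubiquitous Ubiquitin-63E promoter and integrated at a single locus, and they are U:Mzfp1deltaM2/TM6,Tb (ΔM2-HA, without the second MADF domain), U:Mzfp1delta42/TM6,Tb (Δ42-HA, without the region that contacts the protein CP190), U:Mzfp1deltaZf/TM6,Tb (ΔZF-HA, without part of the zinc finger cluster) and U:Mzfp1WT/TM6,Tb (wt-HA, full length). These flies also carry a CG1603attP deletion over CyO, so that 1 endogenous copy of CG1603 remains in each transgenic group. An antibody against HA therefore detects the tagged protein alone, and an antibody against Mzfp1 raised in rat detects the endogenous and the tagged protein together. The study raised its Mzfp1 antibodies against a part of the protein that includes the region deleted in Δ42-HA. How well they detect Δ42-HA beside wt-HA was not tested here, which limits each anti-Mzfp1 comparison with Δ42-HA. The study's immunoblots gave more ΔM2-HA and less Δ42-HA than wt-HA protein. The study also reported several times more Mzfp1 in wt-HA flies than in flies without a transgene, and very similar binding in both. The rat antibody was also used on flies and embryos of y1w1118, a strain with no tag, and an antibody raised in rabbit was used on the embryos. No list was made with anti-Mzfp1 from ΔZF-HA flies, and a list of untagged flies with anti-HA was not analysed here, so regions that the HA antibody or its control would give without a tag cannot be told apart from binding.

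Polycomb group proteins keep developmental genes silent and act in complexes. In Polycomb repressive complex PRC1, Pc is the chromodomain subunit that reads the histone H3 lysine 27 methyl mark, Sce (also called Ring) is the ubiquitin ligase for histone H2A, Psc is its RING finger partner and chromatin compactor, and ph-p and ph-d are near-identical Polyhomeotic proteins with a SAM domain. Scm is a further SAM domain protein that associates with these complexes. In PRC2, E(z) is the methyltransferase that writes the mark, esc and Su(z)12 are subunits needed for its activity, and Pcl is an accessory subunit. The comparison here concerns Mzfp1 at the genes that encode these proteins, not the places where the Polycomb proteins themselves bind.

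The sequence at the Pc start site is shown because every Pc region had its summit within 100 bp of it. The letters below run 5′ to 3′ in the direction of Pc, from 200 bp before the TSS up to the base before it, on the minus strand of chr3L:21318021-21318220 (dm6). Capitals mark the 15 bp that best match a sequence matrix derived here from Mzfp1 regions. That matrix was not compared with the motif that the study reported.
Pc promoter: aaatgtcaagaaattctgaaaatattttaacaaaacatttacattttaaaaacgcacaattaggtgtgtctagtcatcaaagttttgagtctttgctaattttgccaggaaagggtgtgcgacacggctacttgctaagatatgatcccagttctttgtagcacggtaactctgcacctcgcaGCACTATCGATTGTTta
The matrix came from the strongest 500 regions of y1w1118 adults outside 3L, 3R and X, so that Pc, on 3L, took no part in it. It is seeded by the word ATCGATAG, present within 100 bp of the summit in 100 of the 500 regions and in 16 of 1000 flanking windows. A score of 10.6, which 2.5% of flanking windows exceed, was taken as a match, and 39.9% of the y1w1118 adult regions on 3L, 3R and X held one (385 of 966), against 1.92% of their flanks.

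Among the promoters, taken as 200 bp on either side of a TSS, 2 of the 10 genes had a match, as had 14.5% of all genes (2642 of 18277). The Pc match scored 16.3, lay 17 to 3 bp before the TSS, and exceeded the best score of 97.4% of genes. The Scm match scored 17.9, lay 31 to 17 bp before the TSS, and exceeded that of 99.2% of genes. The best 15 bp of both promoters and of 4 that stayed under the threshold are shown to let the letters be compared. Each is read in the direction of the matrix, and capitals mark letters equal to the most frequent letter of the matrix at that position.
Pc: AacaATCGATAGTgc
Scm: gcATATCGATAGTTG
ph-d: AcAcATCGAcAccac
esc: ActatTCGATAaTgc
Su(z)12: AaATATaGAaAGTat
E(z): gagcActGATAacgG
The Scm site carried 13 of 15 leading letters and the Pc site 10 of 15. The ph-d, esc, Su(z)12 and E(z) sites carried 8, 8, 10 and 6 of 15, with scores between -0.09 and 7.94. These 4 are not the highest under the threshold. Psc (6.07), ph-p (5.70), Pcl (5.56) and Sce (3.88) scored within the same range and are not shown. The Pc and Scm sites shared the run ATCGATAGT, absent from the other 4 sites shown, though a matrix seeded by ATCGATAG favours this run. Their positions in dm6 are chr3L:21318023-21318037 for Pc and chr3R:9637628-9637642 for Scm, both on the plus strand, opposite to the transcription of either gene.

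**Figure D1:**
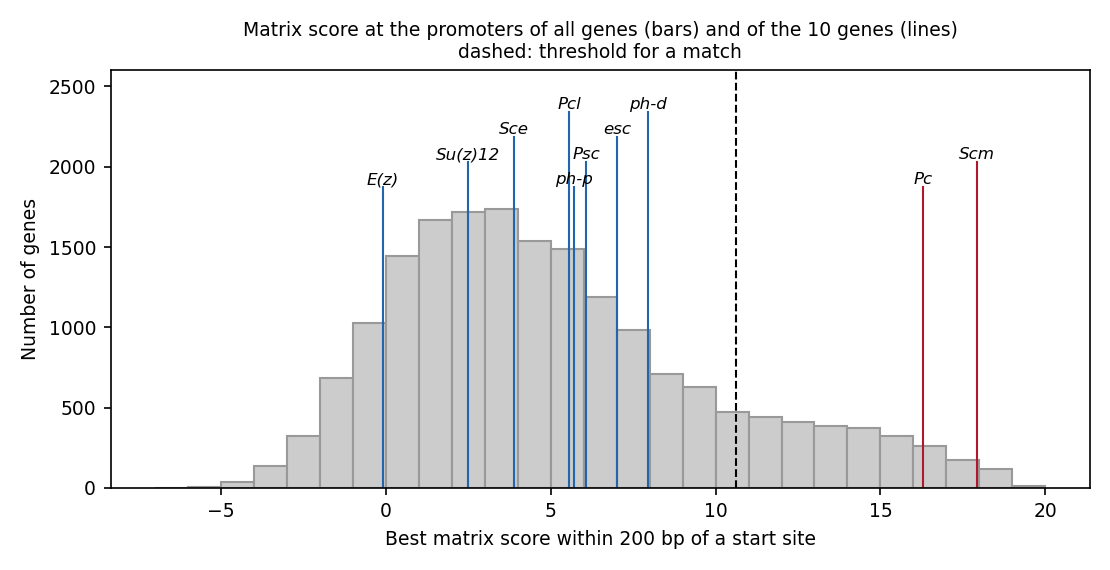
Number of genes (vertical axis) by the best matrix score within 200 bp of a TSS (horizontal axis, log-odds score without unit), with a line for each of the 10 Polycomb group genes and a dashed line at the threshold of 10.6. Scm at 17.9 and Pc at 16.3 lie in the right tail, and the other 8 genes lie below the threshold.

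Binding of Mzfp1 at Pc was measured in each group. The fold enrichment of a region, a ratio of ChIP over control given by the authors' peak caller, describes 1 position of 1 list, and there is 1 list per group, so none of the values below has a spread between replicates and no test between groups was possible. With anti-HA, the Pc region had a fold enrichment of 29.8 in ΔM2-HA flies, 143 in Δ42-HA flies and 6.51 in ΔZF-HA flies, against 112 in wt-HA flies. The rank of Pc was 59 of 6215 regions for ΔM2-HA, 3 of 6192 for Δ42-HA and 27 of 6187 for ΔZF-HA, against 5 of 553 for wt-HA. The value in ΔZF-HA flies was thus low while its rank stayed near the top, in a list whose highest fold enrichment was 22.2. The study itself reported neither true peaks nor significant signal for ΔZF-HA, so a region of that list is not taken here as binding.

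With anti-Mzfp1, the Pc region had a fold enrichment of 111 in ΔM2-HA flies and 192 in Δ42-HA flies, against 154 in wt-HA flies. It had 154 in wt-HA flies against 183 in untagged y1w1118 flies. It ranked 4 in each of these 4 lists, which hold 1611, 1994, 1684 and 1666 regions in the order named. Only the regions nearest RNASEK, Hr39 and CG1677 had higher values in y1w1118 adults, at 256, 230 and 211. The y1w1118 adult value of 183 compared with 16.0 in y1w1118 embryos precipitated with the rat antibody, where Pc ranked 2 of 784. The rabbit antibody gave 9.44 in embryos and a rank of 24 of 110. Pc stood 50.8 times above the median of the list in y1w1118 adults, 2.62 times in ΔZF-HA flies with anti-HA, and 1.48 times in the rabbit list.

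**Figure D2:**
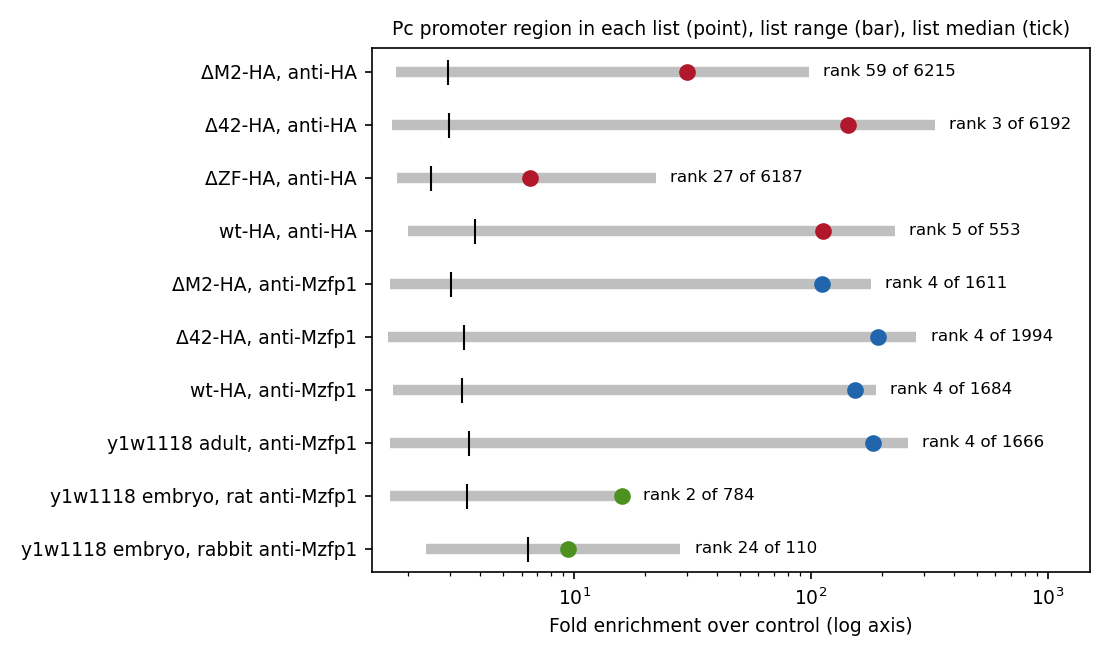
Fold enrichment of the Pc promoter region in each list (point, log axis), with the range of the list (bar), the median of the list (tick) and the rank of Pc written beside it. The Pc point lies near the right end of the bar in the adult anti-Mzfp1 lists, at 111 to 192, and farther from it in ΔM2-HA (29.8) and ΔZF-HA (6.51) with anti-HA.

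In the adult lists the authors give a -log10 p for each of the 2 inputs of their reproducibility procedure (the irreproducible discovery rate, IDR). A p-value depends on read depth as well as on enrichment, and depth is unknown here. These values therefore do not measure the spread of binding at Pc. With anti-HA, the -log10 p of the Pc region was 1070 and 1009 for ΔM2-HA, 7635 and 7508 for Δ42-HA and 102 and 98.1 for ΔZF-HA, against 6575 and 6407 for wt-HA. With anti-Mzfp1 it was 6947 and 6878 in ΔM2-HA and 16259 and 15461 in Δ42-HA, against 13145 and 13469 in wt-HA, and 18924 and 21066 in y1w1118. The -log10 p of the inputs thus differed by at most 11.3% at Pc, in y1w1118, and the fold enrichment is that of the first input alone. A limit of 0.01 on the IDR removed 3012 regions from the ΔZF-HA list, 171 from the Δ42-HA anti-Mzfp1 list and 134 from the y1w1118 list, and 0 from each other adult list. Values above 0.01 belong to the limit for replicates, so the inputs were probably replicates in these 3 lists and may be pseudoreplicates in the others, and the difference between inputs is not of 1 kind over the lists.

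The Pc summit lay before the TSS in each list, between 85 and 36 bp upstream, and the 10 summits spanned 49 bp. With anti-HA it stood 60 bp upstream in ΔM2-HA flies, 66 bp in Δ42-HA flies and 73 bp in ΔZF-HA flies, against 62 bp in wt-HA. With anti-Mzfp1 it stood 66 and 61 bp upstream in ΔM2-HA and Δ42-HA, and 66 bp in both wt-HA and y1w1118 adults. The embryo summits stood 36 bp (rat) and 85 bp (rabbit) upstream. The 15 bp match lies between these summits and the TSS. The region itself was broad, at 2526 bp for ΔM2-HA, 2538 bp for Δ42-HA and 1482 bp for ΔZF-HA with anti-HA, against 2333 bp for wt-HA. It measured 1934 and 1926 bp in ΔM2-HA and Δ42-HA with anti-Mzfp1, against 2510 bp in wt-HA, and 1854 bp in y1w1118 adults, where the median width of the list was 496.5 bp. In embryos it measured 704 bp with the rat and 358 bp with the rabbit antibody. The y1w1118 adult region is chr3L:21317147-21319000 and covers the first 873 bp of the Pc gene (FBgn0003042, chr3L:21306138-21318020, minus strand).

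**Figure D3:**
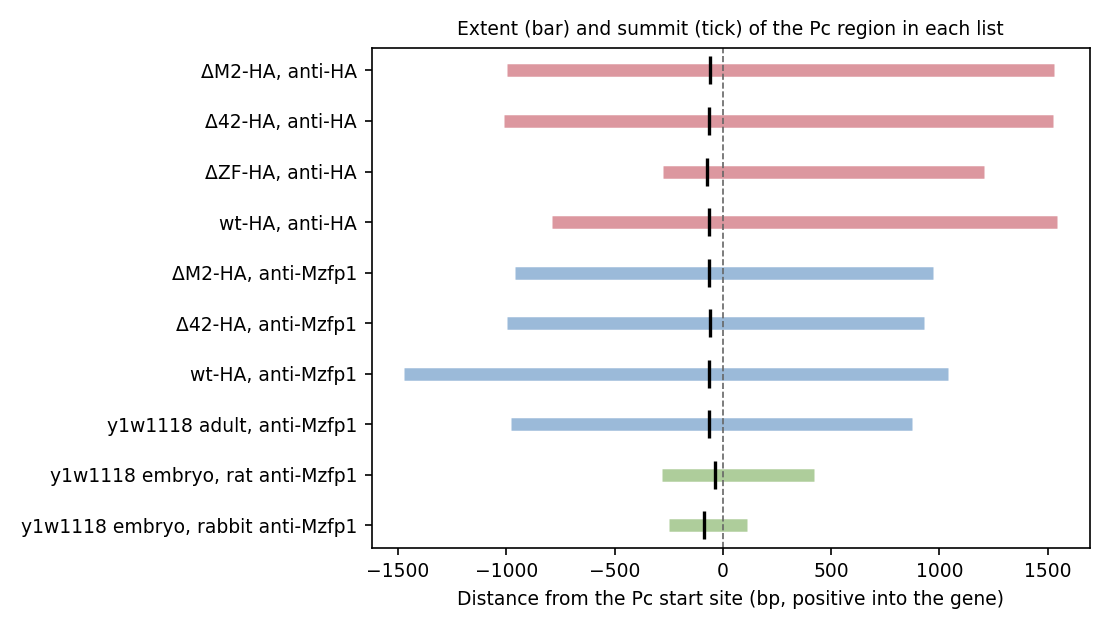
Extent (bar) and summit (tick) of the Pc region in each list, in bp from the Pc TSS, with positive distances inside the gene. The summits align between -85 and -36 bp in all 10 lists, whereas the bars run from 358 bp (rabbit, embryo) to 2538 bp (Δ42-HA, anti-HA).

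In 7 lists, all from adults, the Pc region also came within 200 bp of the start sites of both neighbours of Pc, and the ΔZF-HA region and both embryo regions did not. A non-coding RNA gene, lncRNA:CR45674, starts 630 bp from the Pc TSS, and Rab26, which encodes a small GTPase and is transcribed away from Pc, starts 754 bp from it. The summits stood nearest the Pc TSS in all 10 lists. Of the words searched on either strand within 100 bp of the summit, the Pc regions held CGATA, which was present at 66.5% of y1w1118 adult summits and is bound by the insulator protein BEAF-32. They held neither TATCGATA (21.4% of summits), nor GCCAT, the core bound by Pho (37.0%), nor GAGAG, bound by GAGA factor (17.9%). Every TATCGATA also holds CGATA. The 15 bp match at Pc itself holds CGATA, as does the seed word of the matrix, ATCGATAG. The match and the CGATA at Pc are therefore not separate features. The study reported high colocalization of Mzfp1 with BEAF-32 at promoters.

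How the Pc region compared with other regions was read from the log2 ratio of fold enrichment between lists, set beside the ratios of all regions that both lists share. In ΔM2-HA over wt-HA with anti-HA the log2 ratio at Pc was -1.91, while the median of 416 shared regions was 0.36 and 4.57% of them were lower than Pc. In ΔZF-HA over wt-HA it was -4.11, while the median of 197 shared regions was -1.78 and 2.54% were lower. In Δ42-HA over wt-HA it was 0.35, near the median of 0.42, and 45.1% of 421 shared regions were lower. Pc thus lay in the low tail for ΔM2-HA and ΔZF-HA and near the middle for Δ42-HA.

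The same ratios with anti-Mzfp1 were closer to 0. The log2 ratio at Pc was -0.47 in ΔM2-HA over wt-HA (median -0.09, with 19.3% of 1283 shared regions lower) and 0.32 in Δ42-HA over wt-HA (median 0.24, with 59.2% of 1492 lower). In wt-HA over y1w1118 it was -0.25 (median -0.20, with 43.9% of 1341 lower). Comparisons over wt-HA share the wt-HA list, and the 3 anti-HA ones are therefore not independent of each other. Within a genotype, anti-HA over anti-Mzfp1 gave -1.89 at Pc in ΔM2-HA (median 0.15, with 2.51% of 797 lower). The corresponding values were -0.43 in Δ42-HA (median -0.03, with 34.5% of 829 lower) and -0.46 in wt-HA (median -0.64, with 63.0% of 441 lower).

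Pc was also set beside the 20 shared regions, Pc included, with the highest values in the list of comparison. In ΔM2-HA over wt-HA with anti-HA the median of these 20 was -0.63, and 2 of them were lower than Pc. In ΔZF-HA over wt-HA their median was -3.38, and 1 was lower than Pc. In Δ42-HA over wt-HA it was 0.03, and 12 were lower. In ΔM2-HA anti-HA over anti-Mzfp1 the median was -0.64, and 1 was lower than Pc. The difference of Pc from the median was thus smaller among the strongest regions than among all shared regions, at -1.28 and -2.27 on the log2 scale for ΔM2-HA and at -0.72 and -2.33 for ΔZF-HA over wt-HA with anti-HA. Between stages, the ratio of y1w1118 embryos (rat) over y1w1118 adults was -3.52 at Pc, the median of 664 shared regions was -0.70, and that of the 20 strongest was -3.49 with 9 lower than Pc.

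**Figure D4:**
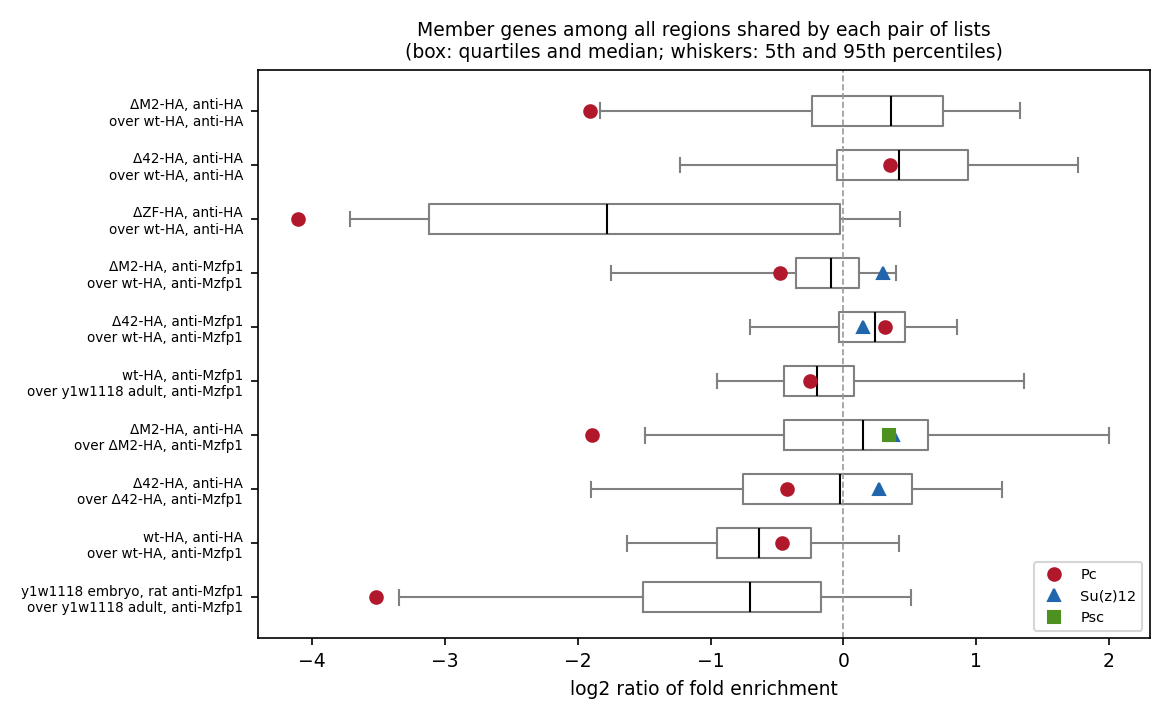
log2 ratio of fold enrichment for each pair of lists (rows, first list over the list named under it). Boxes give quartiles and median, whiskers the 5th and 95th percentiles of all shared regions, and points the regions at Pc, Su(z)12 and Psc where both lists have one. Pc lies left of the whisker at -1.91 and -4.11 in ΔM2-HA and ΔZF-HA over wt-HA with anti-HA, and inside the box at 0.35 in Δ42-HA.

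The other 9 genes lacked the region at the start site that Pc had in each list, or had it in some lists only. The background for each count is the share of all 18277 genes with a region under the same rule. With anti-HA a region lay at 4 of the 10 genes for ΔM2-HA (background 26.0%), 6 for Δ42-HA (27.0%) and 5 for ΔZF-HA (17.3%), against 1 for wt-HA (4.39%). With anti-Mzfp1 a region lay at 3 genes in ΔM2-HA (14.0%) and 2 in Δ42-HA (17.5%), against 2 in wt-HA (15.3%), and at 1 in y1w1118 adults (15.3%). The embryo lists had a region at 1 gene each (6.69% with the rat and 0.843% with the rabbit antibody). Protein-coding genes with windows as long as those of the 10 genes (2599 to 15998 bp) had a region more often than all genes in every list, at 32.7% for ΔM2-HA, 34.3% for Δ42-HA and 18.7% for ΔZF-HA with anti-HA, against 5.72% for wt-HA, and 22.1% in y1w1118 adults. The counts of 4, 6 and 5 lay above their backgrounds, and counts of 1 or 2 lay on either side of theirs. Where the count was 1, the gene was Pc. With 10 genes, 1 gene is 10%, so the counts are coarse beside these backgrounds and the genes are best described singly. No difference from a background was tested.

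Sce, ph-p, ph-d and E(z) had a region in none of the 10 lists. The nearest region to a TSS of these genes in any list was 3139 bp away for Sce, 4646 bp for ph-p, 8792 bp for ph-d and 3926 bp for E(z). The authors removed reads without a unique position, and ph-p and ph-d are near-duplicate neighbours on X, so their lack of regions is uncertain. Cnep1r2, whose start lies 16 bp from an E(z) start on the other strand, likewise had no region within 200 bp of its TSS in any list.

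Psc (FBgn0005624, chr2R:12965997-12980994, minus strand) had 8 regions in 4 lists, most of them in 2 places. At its 5′ end a region had its summit 115 bp inside the gene in ΔM2-HA (fold enrichment 2.48) and 76 bp inside it in Δ42-HA (2.51) with anti-HA, and 108 bp inside it in ΔM2-HA with anti-Mzfp1 (1.95). These summits lie in the 5′ UTR and ranked low, at 5431 of 6215, 5632 of 6192 and 1546 of 1611. A stronger region lay in a coding exon with anti-HA, and the wt-HA list, with only 553 regions, had none. The position of this region is given from the inner of the 2 Psc start sites, at chr2R:12980658. The summit lay 2749 bp downstream of that site for ΔM2-HA (4.60, rank 446), 2750 bp for Δ42-HA (4.56, rank 500) and 2755 bp for ΔZF-HA (3.18, rank 442). The 3 summits thus fell within 6 bp of each other. The -log10 p of the IDR inputs for this region was 45.6 and 39.6 in ΔM2-HA and 20.6 and 19.6 in ΔZF-HA, but 41.7 and 16.2 in Δ42-HA, where the second input was 61.2% below the first. Intronic regions were added in Δ42-HA (2.90, at 4143 bp from the same inner start site) and ΔZF-HA (2.37, at 5791 bp from it).

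Scm (FBgn0003334, chr3R:9633359-9637611, minus strand), in spite of the highest matrix score of the 10 promoters, had a region in 1 list only. That region had a fold enrichment of 3.31 in Δ42-HA flies with anti-HA, ranked 1859 of 6192 and had its summit 604 bp inside the gene, in a coding exon. Its edge came no nearer than 381 bp to the TSS, so the Scm match itself lay in no region of any list. In y1w1118 adults the nearest region was 6532 bp from the Scm TSS, and Dh44, which encodes a diuretic hormone and starts 571 bp away on the other strand, had none at its TSS either. Of 1616 genes on 3L, 3R and X with a match at the promoter, 565 (35.0%) had a y1w1118 adult region within 200 bp of a TSS, against 676 (7.45%) of 9069 genes with no match. Of the 105 genes with a score at least that of Scm, 39 (37.1%) had one. A strong match with no region, as at Scm, was therefore the more frequent case, and Pc belonged to the less frequent one.

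**Figure D5:**
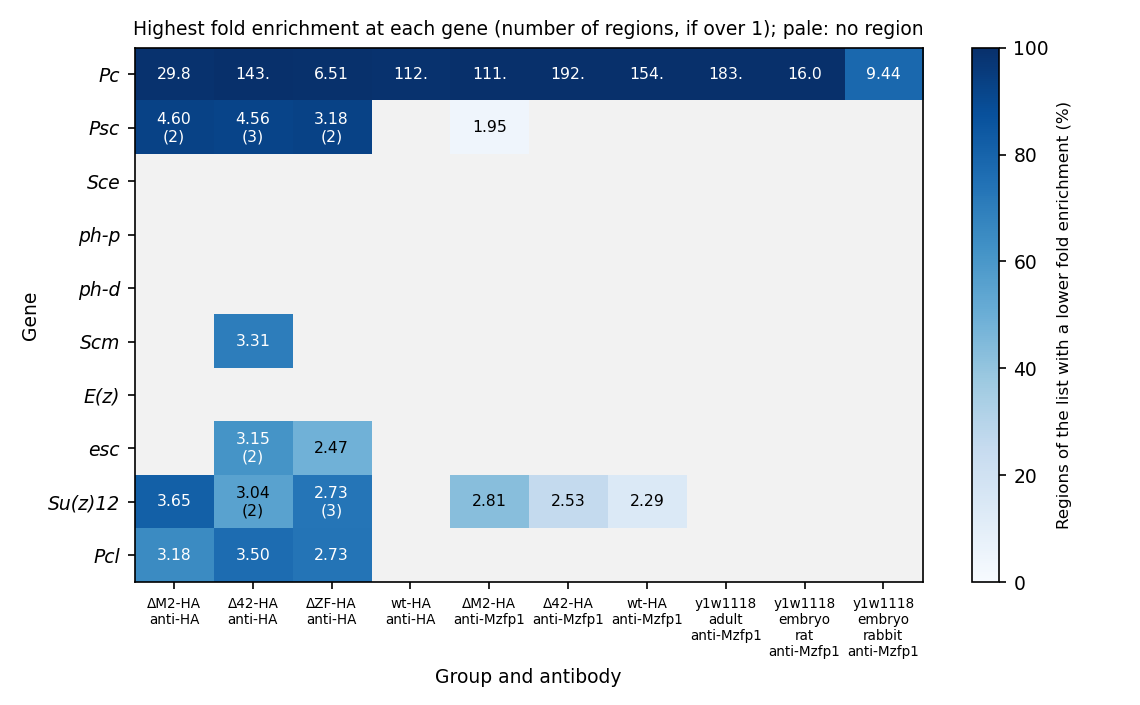
Highest fold enrichment (number in each cell) of the regions at each of the 10 genes (rows) in each list (columns), with the number of regions in brackets where there is more than 1. Colour gives the percentage of regions of the list with a lower fold enrichment, and pale cells have no region. Pc fills its whole row, at 6.51 to 192, whereas no other cell exceeds 4.60.

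Of the PRC2 genes, Su(z)12 (FBgn0020887, chr3L:19918242-19923462, minus strand) had 9 regions in 6 lists. With anti-Mzfp1 its fold enrichment was 2.81 in ΔM2-HA flies (rank 919 of 1611) and 2.53 in Δ42-HA flies (1486 of 1994), against 2.29 in wt-HA flies (1451 of 1684). The summits lay 168, 167 and 208 bp inside the gene in the order named, in the 5′ UTR, and the log2 ratio over wt-HA was 0.30 in ΔM2-HA (median -0.09, with 90.6% of 1283 shared regions lower) and 0.15 in Δ42-HA (median 0.24, with 40.1% of 1492 lower). y1w1118 adults had no region there, the nearest lying 52305 bp from the TSS. With anti-HA the region near the start had a fold enrichment of 3.65 for ΔM2-HA, 3.04 for Δ42-HA and 2.73 for ΔZF-HA. Its summit lay 453, 451 and 114 bp inside the gene in that order. The wt-HA list, with only 553 regions, had no region there. Further regions lay farther inside the gene, at 4341 bp in Δ42-HA (2.69) and at 4519 and 3120 bp in ΔZF-HA (2.55 and 2.20). Pfdn6, a prefoldin subunit gene transcribed away from Su(z)12 from a start 209 bp away, had a region within 200 bp of its TSS in 4 lists, so the promoter regions of the pair cannot be told apart.

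The regions at esc (FBgn0000588, chr2L:11827204-11829405, minus strand) and Pcl (FBgn0003044, chr2R:18135426-18139990, plus strand) were found in variant anti-HA lists only. Those lists hold 6187 to 6215 regions, against 553 in the wt-HA anti-HA list. The lack of a region in wt-HA flies therefore cannot be told apart from the shorter list. With every list shortened to its 110 regions of highest fold enrichment, neither gene had a region in any list. A narrow region of 206 bp stood 33 bp upstream of the esc TSS in Δ42-HA flies, with a fold enrichment of 3.15 (rank 2393 of 6192). A farther region had its summit at -1027 bp from the TSS in Δ42-HA (2.72) and at -1048 bp in ΔZF-HA (2.47), at the edge of the window. The Pcl region lay in a coding exon, 758 bp inside the gene for ΔM2-HA (3.18, width 1401 bp), 789 bp for Δ42-HA (3.50, 1103 bp) and 773 bp for ΔZF-HA (2.73, 1375 bp), and wt-HA flies had none. Hsf, which encodes the heat shock transcription factor and starts 792 bp from Pcl, had no region at its TSS in any list.

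Taken as a group, the 24 regions outside Pc had fold enrichments of 1.95 to 4.60 and widths of 180 to 1401 bp. Their summits lay in 5′ UTRs (9), coding exons (9), upstream sequence (3), introns (2) and a 3′ UTR (1), and 7 were within 200 bp of a TSS. None had a matrix match within 100 bp of its summit, and 6 held CGATA. The variant anti-HA lists, which hold 20 of these regions, had a match at 2.88% (ΔM2-HA), 2.41% (Δ42-HA) and 0.559% (ΔZF-HA) of their regions on 3L, 3R and X, against 13.2% in the wt-HA list. The corresponding shares of flanking windows were 2.41%, 2.50% and 2.07%, against 3.10%. A region without a match was thus the usual case in the variant anti-HA lists, and Pc was an exception in them. The remaining regions lay in anti-Mzfp1 lists, where a match was present at 34.5% (ΔM2-HA), 36.7% (Δ42-HA) and 34.4% (wt-HA) of regions on 3L, 3R and X.

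Regions ranked like Pc were sought among promoters. All 10 lists entered the search, including the ΔZF-HA list, whose regions are not taken here as binding. Of 1450 y1w1118 adult regions within 200 bp of a TSS, 54 had an overlapping region in all 10 lists, and 8 of these (14.8%), Pc among them, held a matrix match. Over the 10 lists the mean absolute difference from Pc in the percentile of fold enrichment was smallest for Maf1 (0.58 percentage points), anne (0.85) and CG17528 (0.87). Their fold enrichments in y1w1118 adults were 174, 181 and 129, ranking 6, 5 and 15, and none of the 3 had a matrix match, as Pc did.

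Other genes of the Polycomb and trithorax groups, whose products oppose each other at common targets, were counted by the same rule. Of 20 further Polycomb group genes listed, 19 matched the annotation by symbol. With anti-HA a region lay at 14 of the 19 for ΔM2-HA (26.0% of all genes), 12 for Δ42-HA (27.0%) and 9 for ΔZF-HA (17.3%), against 4 for wt-HA (4.39%). With anti-Mzfp1 a region lay at 10 in ΔM2-HA (14.0% of all genes) and 11 in Δ42-HA (17.5%), against 10 in wt-HA (15.3%), and at 11 in y1w1118 adults (15.3%). Embryos had 5 with the rat (6.69%) and 0 with the rabbit antibody (0.843%). Of 28 trithorax group genes, with the same shares of all genes beside them, 17 had a region for ΔM2-HA, 19 for Δ42-HA and 13 for ΔZF-HA with anti-HA, against 4 for wt-HA. With anti-Mzfp1 14 had one in ΔM2-HA and 17 in Δ42-HA, against 16 in wt-HA, and 16 in y1w1118 adults. Embryos had 5 with the rat and 0 with the rabbit antibody. Protein-coding genes of the lengths given above stood at 32.7% (ΔM2-HA), 34.3% (Δ42-HA) and 18.7% (ΔZF-HA) with anti-HA, against 5.72% (wt-HA). No gene of either list had a region in each of the 10 lists, and 3 and 4 genes had none in any. In y1w1118 adults these counts were 57.9% of the further Polycomb group and 57.1% of the trithorax group genes, beside 15.3% of all genes and 22.1% of protein-coding genes as long as the 10 members, and the lists were not matched in length or expression.

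The 5 highest y1w1118 adult values within 200 bp of a TSS were far below the 183 of Pc in both lists. Among Polycomb group genes they were 9.87 at Asx, which encodes a partner of the H2A deubiquitinase, 6.29 at lolal, a BTB domain protein, 5.65 at sxc, the O-GlcNAc transferase, 4.61 at Spps, a zinc finger protein that binds Polycomb response elements, and 4.50 at jing, a zinc finger protein. Among trithorax group genes they were 17.2 at Utx, the histone H3 lysine 27 demethylase, 12.4 at osa, a Brahma complex subunit, 5.77 at Rbbp5 and 5.56 at Hcf, both of histone methyltransferase complexes, and 5.35 at Ptip. At sxc the anti-Mzfp1 value was 4.97 in ΔM2-HA and 17.2 in Δ42-HA, against 23.0 in wt-HA, and 5.65 in y1w1118 adults. At Pc, by contrast, these lists gave 111, 192, 154 and 183. The values of both genes thus did not follow the same order over these 4 lists. The sxc promoter lies in the part of 2R that the study counted as heterochromatin, and Pc lies outside that of 3L. The study reported less anti-Mzfp1 binding to heterochromatin in ΔM2-HA flies. Whether location relates to the difference between sxc and Pc was not tested.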

How the data were processed

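Sequencing reads were trimmed (cutadapt, sickle) and aligned to dm6 by the authors, with bowtie2 for adult and bowtie for embryo libraries, and duplicate, non-unique and blacklisted reads were dropped. MACS2 p-value limits were 0.01 with IDR for adults and 1e-05 for embryos. The deposited lines give the fold enrichment as a ratio, and −log10 p. Adult lines add the −log10 IDR and the −log10 p of the second input, both deposited as scores, while their −log10 p is that of the first input in 100% of lines. Another 48 columns describing the inputs were left out. IDR limits were 0.05 between replicates and 0.01 between pseudoreplicates. Peaks were called against the preimmune control matching each antibody, although the labels of the 5 control libraries (of 23) do not tie each to a list. On that reading the 4 anti-HA lists share 1 control library. Library depth is unknown, and the lists held 110 to 6215 regions on chromosomes.

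Genes came from Ensembl release 115 (18277 genes, 35612 transcripts) and sequence from the RefSeq Release 6 genome, which is dm6. Overlaps and the 15 bp matrix (trained on chromosomes 2L, 2R and 4 in 10 rounds, pseudocount 0.5) were computed in Python 3.11.15 with pandas 2.3.3 and numpy 2.4.6 and tested on simulated data. Ratios use the strongest region within 200 bp of a TSS. Named genes are the members, the 5 genes of each further list with the highest y1w1118 value, the 3 promoters most like Pc, and genes starting within 1 kb of a member; sxc was followed further after its values were seen. Members and lists were chosen with earlier results of these data known. Alternatives changed the overlap rule, the window, the −log10 p and IDR limits and the list length.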

Additional observations from a re-analysis of the deposited data

How the results depend on the processing

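The count of the 10 genes with a region stayed within 1.5 times its value in 60 of 68 comparisons of an alternative with its list. Part of these comparisons could not differ, because a −log10 p limit of 5 removed no region from any list. The IDR limit likewise removed none from most adult lists, and the rabbit list already held 110 regions. A fall from 6 to 4 genes in Δ42-HA with anti-HA also counted as within 1.5 times. The share is therefore not a measure of how stable the counts are. With every list shortened to the 110 regions of highest fold enrichment, 1 gene, Pc, was left in each of the 10 lists, against the 3 and 2 genes found in ΔM2-HA and Δ42-HA and 2 in wt-HA with anti-Mzfp1, and the 4, 6 and 5 found in ΔM2-HA, Δ42-HA and ΔZF-HA with anti-HA. In ΔZF-HA the count was 3 with windows of 200 bp around each TSS and 2 with a −log10 p of at least 20, a limit chosen after seeing that one of 5 removes no region. In ΔZF-HA the esc region was lost when the summit or 50% of the region had to lie in the window. Ranking regions by −log10 p moved the percentile of Pc by at most 0.909 percentage points, in the rabbit embryo list, and by at most 0.062 in adults. No paired analysis was possible because there is 1 list per group, which also means that no replicate was left out. Depth was not known, and the weak regions at genes other than Pc rest on fold enrichments of 1.95 to 4.60.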
